A study of Mus musculus with 22 samples.

Results

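The 10 genes of the precursor B cell receptor and its first signalling steps were Vpreb1, Vpreb2, Igll1, Vpreb3, Cd79a, Cd79b, Blnk, Syk, Btk and Blk. They were taken by symbol from the gene tables of 3 stages, which listed 37669 genes for large Pro-B cells, 37851 for large Pre-B cells and 26095 for small Pre-B cells. All 10 were listed in each table and all 10 passed the filter on low values in each stage. The cells came from bone marrow of adult tet-LIN28B mice, which carry a doxycycline-inducible Flag-tagged human LIN28B cDNA in the Col1a locus and the rtTA*m2 activator at Rosa26, and of littermate controls carrying the Rosa26 activator. Both genotypes were kept for 10 days on chow with doxycycline (200 mg/kg), so the controls share the drug. Pro-B cells were sorted as cKIT+ and Pre-B cells as cKIT- among CD93+ IgM- cells, and large and small cells were separated by forward scatter. The large Pro-B stage had 5 tet-LIN28B and 4 control libraries, the large Pre-B stage 4 tet-LIN28B and 3 control libraries, and the small Pre-B stage 3 of each, from 15 mice in all. Of these mice, 7 were sampled at both large stages, and those sampled at the small stage gave no other library.

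The precursor B cell receptor forms once a heavy chain has been made and before a light chain exists. VpreB and λ5 (the product of Igll1) together make a surrogate light chain that pairs with the heavy chain, while CD79a and CD79b carry the cytoplasmic tyrosine motifs through which the complex signals. SRC family kinases such as BLK and the kinase SYK act on those motifs, and the adaptor BLNK then brings BTK to the membrane complex that opens the calcium and RAS pathways. Signalling through this receptor drives the burst of division of large Pre-B cells and then its end, when surrogate light chain genes are turned off and light chain rearrangement begins.

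Vpreb1 and Vpreb2 are near copies, which matters for reading every value of this pair. Their coding sequences of 429 bases each differed at 9 bases (97.9% identical in GENCODE vM21), with a longest identical run of 196 bases, so reads within such a run cannot be assigned to one copy. The stretch of 90 coding bases with the most differences is shown for each gene, on the gene's strand, with the 5 differing bases in capitals. It covers coding bases 298 to 387 and lies in GRCm38 (mm10) at chr16:16868638-16868727 (minus strand) for Vpreb1 and chr16:17980949-17981038 (plus strand) for Vpreb2.
Vpreb1: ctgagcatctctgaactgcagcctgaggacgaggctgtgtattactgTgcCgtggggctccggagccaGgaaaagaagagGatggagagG
Vpreb2: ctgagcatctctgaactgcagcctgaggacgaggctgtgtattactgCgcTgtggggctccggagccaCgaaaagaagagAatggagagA
Values of Vpreb1 and Vpreb2 are therefore uncertain as to the copy. In addition, Vpreb1 overlaps Top3b on the opposite strand, and Vpreb3 and Btk each overlap a pseudogene on the opposite strand (Gm16221 and Gm15154), which counting without strand could not tell apart.

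Promoter windows of 8 of the 10 genes were matched in RefSeq (GRCm38.p6). The E-box CAGGTG, a site type bound by E2A family factors, was searched on both strands (as CAGGTG or CACCTG). It stood in a window of 6 of the 8 genes (Vpreb1, Vpreb2, Igll1, Cd79a, Blnk and Syk), against 20.2% of 32851 windows of the same length. The 8 genes had 9 windows, so the counts here are per gene and the shares per window. The stretches of Vpreb1 and Vpreb2 printed below are nearly the same, so their matches are hardly separate. Stretches upstream of the transcription start are printed for the surrogate light chain genes and Cd79a, whose levels across the stages moved in opposite directions. The capitals mark the E-box.
Vpreb1: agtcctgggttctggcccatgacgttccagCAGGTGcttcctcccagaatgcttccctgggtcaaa
Vpreb2: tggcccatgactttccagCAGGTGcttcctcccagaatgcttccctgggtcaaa
Igll1: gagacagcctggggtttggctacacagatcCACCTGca
Cd79a: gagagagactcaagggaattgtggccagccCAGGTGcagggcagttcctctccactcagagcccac
They lie at chr16:16869308-16869373 (minus), chr16:17980315-17980368 (plus), chr16:16863986-16864023 (minus) and chr7:24897313-24897378 (plus), with the E-box starting 88, 232, 8 and 154 bases before the start site. The second E-box searched, CAGCTG, was found in 3 of the 8 genes (Igll1, Syk and Vpreb2) against 16.3% of windows, and the EBF core TCCCNNGGG, on both strands, in 0 of 8 against 6.56%. Only exact matches were counted, so a site that departs from the pattern was missed and a count of 0 does not show that such sites are absent. A match is a description of the letters only.

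Library depth was 13.9 to 23.3 M recovered reads at the large Pro-B stage, 19.9 to 30.4 M at the large Pre-B stage and 32.0 to 51.0 M at the small Pre-B stage. The mouse Lin28b row held 41.9 to 232 normalized counts in tet-LIN28B libraries and 0 to 28.8 in control libraries, and the genotypes did not overlap in any stage. B lineage markers were at 10 or more normalized counts in every library (6 of 6 genes), and no T cell marker reached that level in every library of a group. Some libraries stood apart. Among large Pro-B libraries, replicate 4 of tet-LIN28B and replicate 4 of control had 7681 and 6143 normalized counts of Mki67, against 13807 to 28772 in the other 7. Mki67 is 1 of 4 cycling markers read here, and Top2a was also low in them (9421 and 10443). The 4 markers summed to at least 56209 in each tet-LIN28B library, so most of the sum of tet-LIN28B replicate 4 came from Ccnb1 and Cdk1. Whether these libraries held fewer dividing cells was not tested. In the libraries numbered 4 long genes (the longest 25%) lay below short genes (the shortest 25%) by 0.69 and 0.38 on the log2 scale, relative to the mean of the stage. A smaller offset the same way (0.28) was seen in large Pro-B control replicate 3, which had the lowest Mki67 of the other 7 (13807). Control replicate 3 of large Pre-B cells showed the same kind of offset (0.39 on the log2 scale) and had 14157 normalized counts of Mki67, against 22720 to 26104 in the others. Control replicate 2 held the most myeloid transcripts in each stage, with summed levels of 4754, 6055 and 2953 normalized counts in order of stage.

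**Figure D1:**
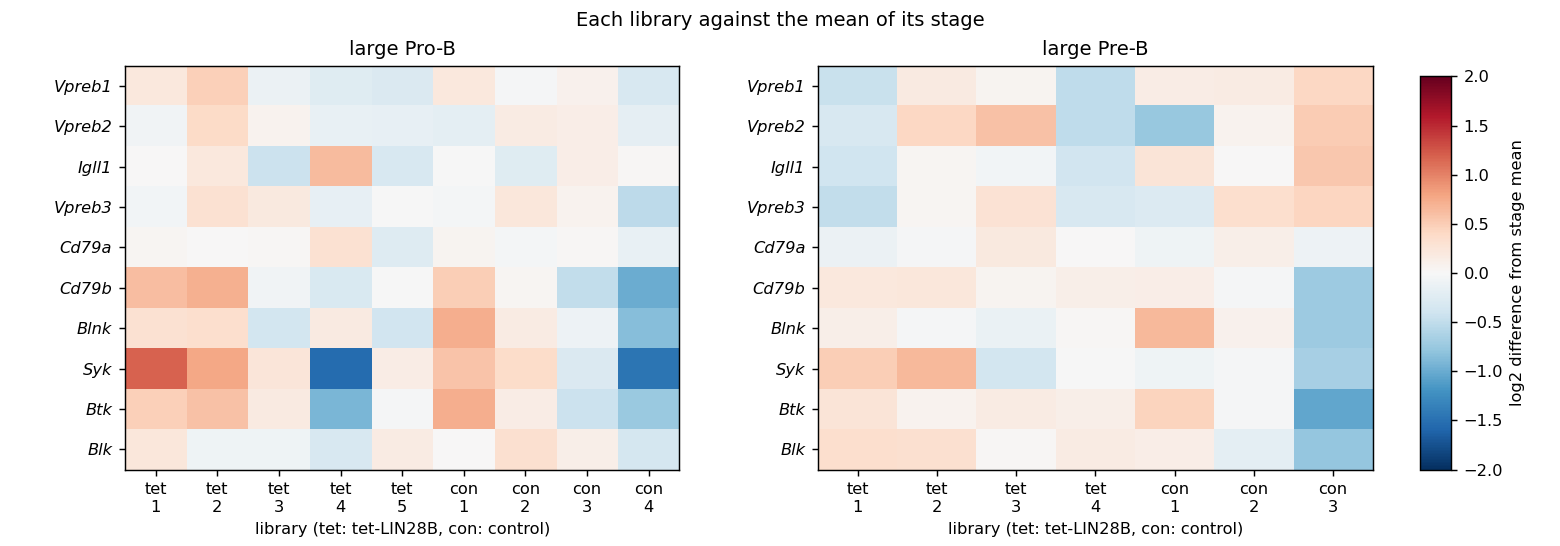
Difference of each library from the mean of all libraries of its stage on the log2(normalized count + 1) scale, for the 10 genes in the large Pro-B libraries (left) and the large Pre-B libraries (right), tet-LIN28B libraries first. Syk, Btk and Cd79b were low in both large Pro-B libraries numbered 4, and Cd79b, Blnk, Syk, Btk and Blk were low in control 3 of the large Pre-B stage.

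Across the stages, levels were given as RPM (the reads of a gene scaled to the depth of its library) and described without a test, since the 3 tables were normalized separately and no mouse was sampled at all stages. Surrogate light chain genes were highest in large Pro-B cells. Igll1 averaged 1494 ± 337 (SD, n = 5), 275.7 ± 33.0 (n = 4) and 7.02 ± 1.98 (n = 3) RPM at the 3 stages in order (large Pro-B first) in tet-LIN28B mice. In controls it averaged 1426 ± 152 (n = 4), 421 ± 128 (n = 3) and 6.20 ± 2.06 (n = 3). The means were thus 5.42-fold lower in large Pre-B than in large Pro-B cells of tet-LIN28B mice and 3.39-fold lower in controls, with a further 39.3-fold and 68.0-fold in small Pre-B cells. Vpreb1 ran the same course, at 472, 86.9 and 5.46 RPM in tet-LIN28B cells and 460, 126 and 5.17 in control cells. Vpreb2 was at 66.8, 11.0 and 0.267 RPM in tet-LIN28B cells and 64.5, 11.7 and 0.107 in control cells. For these 3 genes the stages did not overlap in either genotype, and all 7 mice with both large stages were lower in the later one.

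Vpreb3, whose product resembles VpreB but is not part of the surrogate light chain, was highest in small Pre-B cells. It averaged 245, 291 and 1770 RPM in tet-LIN28B cells and 226, 393 and 1700 in control cells, with the large stages overlapping and small Pre-B cells above both. Cd79a, a signal chain of the receptor, was at 527, 544 and 3573 RPM in tet-LIN28B cells and 507, 570 and 3302 in control cells. Cd79b, its partner, averaged 708, 1303 and 3948 in tet-LIN28B cells and 545, 1105 and 3011 in control cells, and its stages did not overlap in either genotype. Cd79a and Cd79b together took 0.737 to 0.763% of the reads of tet-LIN28B small Pre-B libraries and 0.621 to 0.645% of those of control libraries. Per kilobase of exon, Cd79a (2452 and 2266 RPKM in tet-LIN28B and control) and Cd79b (2759 and 2104) led the 10 genes in small Pre-B cells, followed by Vpreb3 (2061 and 1980).

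Syk, the kinase that docks on the CD79 chains, averaged 341, 924 and 1622 RPM in tet-LIN28B cells and 252, 711 and 1776 in control cells, with no overlap of the stages. Blk, the SRC family kinase, averaged 88.1, 484 and 511 in tet-LIN28B cells and 90.7, 375 and 378 in control cells, so it differed between the large stages, while the Pre-B stages overlapped. Blnk, the adaptor, averaged 879, 629 and 896 in tet-LIN28B cells and 910, 705 and 1008 in control cells, and was lower in large Pre-B than in large Pro-B cells in all 7 mice with both. Btk, the kinase downstream, averaged 263, 375 and 264 in tet-LIN28B cells and 240, 329 and 246 in control cells.

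**Figure D2:**
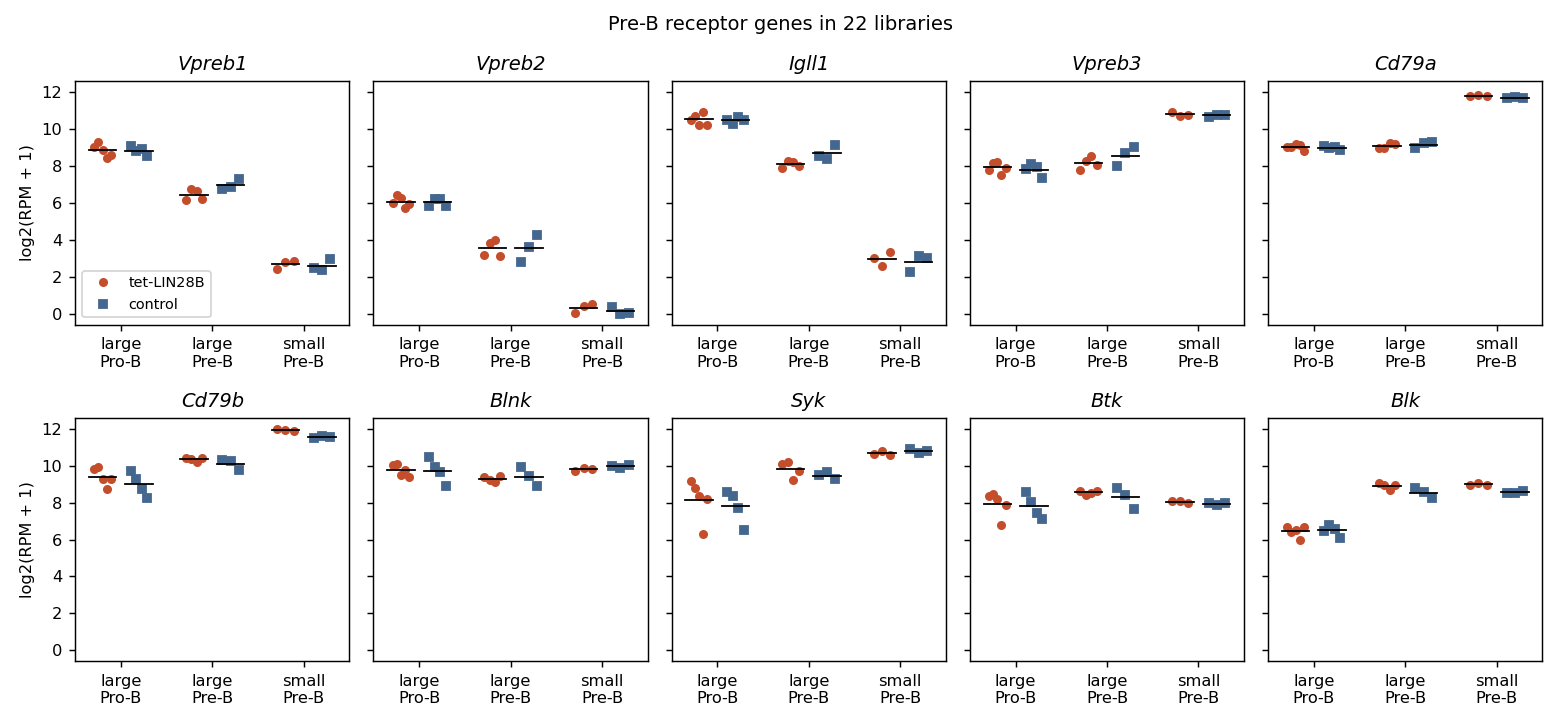
Level of each gene on a log2(RPM + 1) scale in the 22 libraries by stage, tet-LIN28B left of control in each stage (points are libraries, black bars the mean). The surrogate light chain genes Vpreb1, Vpreb2 and Igll1 are lower in each later stage, while Vpreb3, Cd79a, Cd79b and Syk are highest in small Pre-B cells and Blk overlaps between the Pre-B stages.

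Over the 22 libraries, among 8340 other genes with a mean of at least 10 RPM, the genes whose log2 levels followed Igll1 most closely were Impa2, Tyms, Gmds, Chchd6 and Mtap (Pearson r of 0.99 each). Those that followed Cd79b were Birc3, H2-T23, Sp100, Ero1lb and Cd74 (0.98 each). The values share the stage order and the libraries, so they describe the pattern only. Among the 10 genes, Vpreb1 followed Igll1 (0.99) and Syk followed Cd79b (0.94), whereas Cd79b and Igll1 ran opposite (-0.93).

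In small Pre-B cells, Cd79b and Blk rose in tet-LIN28B mice. Cd79b had 146801, 140265 and 134025 normalized counts in tet-LIN28B libraries, against 102017, 106808 and 104200 in control libraries. The genotypes did not overlap, and the difference was 0.43 ± 0.06 on the log2 scale (SE, 95% interval 0.29 to 0.56, limma adjusted p = 0.00186). Blk had 17500, 19340 and 17626 normalized counts in tet-LIN28B libraries, against 12738, 12636 and 13907 in control libraries. It was higher by 0.47 ± 0.07 (0.32 to 0.62, limma adjusted p = 0.00174), again with no overlap. A change in the share of cells of a type and a change in RNA per cell cannot be told apart in such bulk samples. Both calls held in each of the 15 alternatives run, over which the change ranged from 0.23 to 0.46 for Cd79b and from 0.42 to 0.52 for Blk.

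The other 8 genes did not pass. Cd79a had 127273, 129883 and 123845 normalized counts in tet-LIN28B libraries, against 113384, 116548 and 113385 in control libraries. Its groups did not overlap and its difference of 0.15 ± 0.06 had an adjusted p of 0.108 in limma, but its sign turned to -0.08 with quantile normalization. Btk had 9629, 9570 and 8916 normalized counts in tet-LIN28B libraries, against 8605, 8080 and 8855 in control libraries (0.14 ± 0.06, adjusted p = 0.18 in limma). That gap was within the scaling, since in RPM its lowest tet-LIN28B library (254.9) lay below the highest control library (255.2). Blnk was at 30017, 33917 and 31538 normalized counts in tet-LIN28B libraries, against 35498, 33033 and 36222 in control libraries (-0.13 ± 0.07, adjusted p = 0.209 in limma). Syk differed by -0.10 ± 0.08 and Vpreb3 by 0.09 ± 0.07, with overlapping genotypes.

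Surrogate light chain transcripts were near the end of their range in small Pre-B cells and gave no call. Igll1 had 249, 181 and 316 normalized counts in tet-LIN28B libraries, against 133, 265 and 246 in control libraries, a difference of 0.24 ± 0.28. Vpreb1 had 153, 208 and 219 in tet-LIN28B libraries, against 159, 146 and 233 in control libraries. Vpreb2 had 1.41, 12.4 and 14.5 in tet-LIN28B libraries, against 10.2, 0 and 0.939 in control libraries, which is too few to read a fold. The differences of Igll1 and Vpreb1 were within the spread between libraries.

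Of the 10 genes, 2 thus passed in small Pre-B cells, against 14.4% of the 14664 genes tested, and 4 of 10 (Cd79a, Cd79b, Btk and Blk, all higher) had no overlap between genotypes, against 33.9% of all genes. The median change of the 10 genes was 0.14, against -0.00 over all genes tested, and 8 of 10 were positive, against 7285 of 14664 genes. Those 8 included Vpreb1 and Igll1, within the spread between libraries, and Vpreb2, with few reads. They also included Cd79a, whose sign turned with quantile normalization. Over all genes 2107 passed, and the count fell to 1016, 1304 and 1223 without control replicates 1, 2 and 3 and to 1240 without tet-LIN28B replicate 1, with both members called each time. Markers of other stages and cell types also differed between these libraries. Immature or mature B markers summed to 22585 to 29859 normalized counts in tet-LIN28B libraries and 17333 to 19321 in control libraries, and Ms4a1, Fcer2a and Cr2 rose among the 5 genes of that list. Small Pre-B markers moved both ways. Of the 5, Igkc and Cd2 rose by 0.30 and 0.25 while Il2ra and Rag2 fell by 1.13 and 0.21 (limma adjusted p between 2.9e-05 and 0.0449), and their sum was 113699 to 115270 in tet-LIN28B libraries and 106822 to 110538 in control libraries. Of 4 markers of cycling large Pre-B cells, Ccnb1 and Mki67 rose by 0.63 and 0.48 (adjusted p = 0.0226 and 0.0287 in limma), with sums of 3499 to 5375 in tet-LIN28B libraries and 3094 to 3433 in control libraries. Of 4 Pro-B markers only Il7r passed, with a fall of 0.72 (adjusted p = 0.00114 in limma). The other Pro-B markers moved both ways without passing (Dntt 1.27, Cd93 0.13 and Kit -1.82). Sums of the 4 were 20746 to 26662 in tet-LIN28B libraries and 27780 to 29873 in control libraries. Plasma cell markers summed to 2009 to 2366 in tet-LIN28B libraries and 6004 to 7378 in control libraries. Myeloid markers summed to 1417 to 1491 in tet-LIN28B libraries and 1628 to 2953 in control libraries. The level of long against short genes, relative to the mean of the stage, was also lower in tet-LIN28B libraries, at -0.08, -0.00 and -0.22 on the log2 scale, against 0.16, 0.01 and 0.08 in control libraries, without overlap. The part of these markers and of gene length in the values of Cd79b and Blk was not tested. Without control replicate 2, which had the most myeloid transcripts, Cd79b and Blk differed by 0.44 and 0.45 (adjusted p = 0.0107 and 0.0128 in limma).

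**Figure D3:**
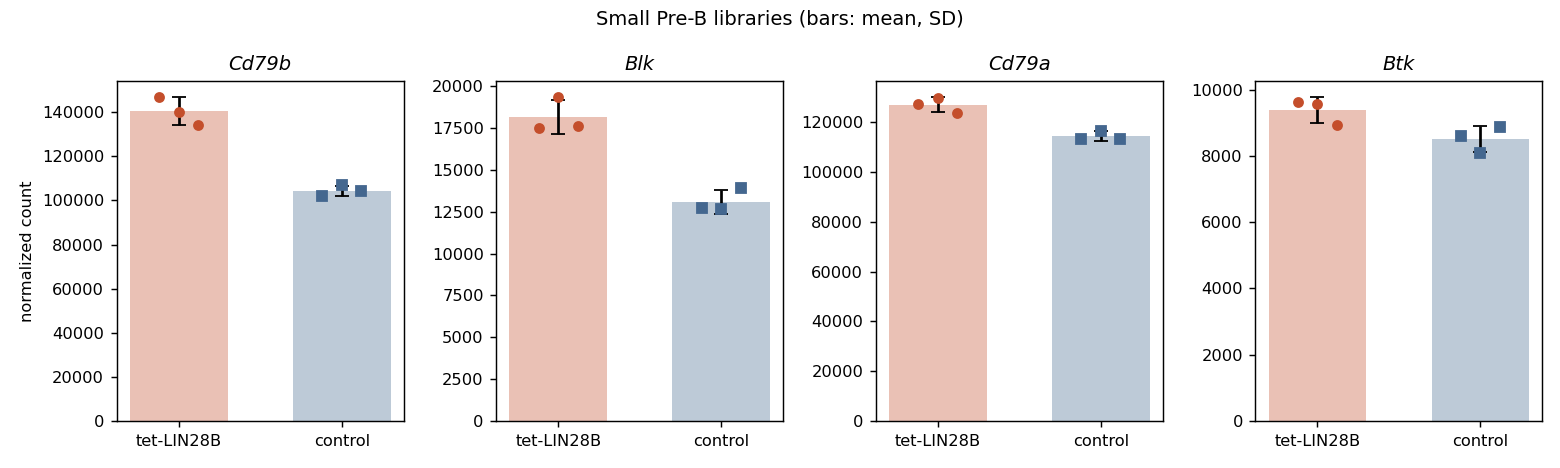
Normalized counts of Cd79b, Blk, Cd79a and Btk in the small Pre-B libraries, tet-LIN28B left of control (bars and error bars: mean and SD of 3 libraries, points: libraries). The 3 tet-LIN28B libraries lie above the 3 control libraries for each of these genes, with Cd79b at 134025 to 146801 against 102017 to 106808.

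In large Pre-B cells, Igll1 was lower and Blk higher in tet-LIN28B mice, but neither passed the test. Igll1 had 4003, 5411, 5100 and 4068 normalized counts in tet-LIN28B libraries, against 6297, 5338 and 7722 in control libraries. The genotypes overlapped by 1 library, and the difference was -0.47 ± 0.21 (adjusted p = 0.747 in limma). It was -0.33 without control replicate 3, which held the highest Igll1 (7722). In RPM the genotypes did not overlap, at 238 to 309 in tet-LIN28B libraries and 330 to 567 in control libraries. The 2 scales differ because rescaling each library to the same total moves all large Pre-B differences by -0.11. Vpreb1 differed by -0.42 ± 0.23 and Vpreb3 by -0.29 ± 0.25. Vpreb2 had 121 to 257 normalized counts in tet-LIN28B libraries and 101 to 245 in control libraries, a difference of 0.10 ± 0.37.

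Blk had 8832, 8720, 7091 and 7878 normalized counts in tet-LIN28B libraries, against 7654, 6135 and 4104 in control libraries. Its difference of 0.49 ± 0.23 (adjusted p = 0.747 in limma) was 0.24 without control replicate 3, the library of this stage in which long genes lay furthest below short genes. Cd79b had 22828, 23007, 20381 and 21310 in tet-LIN28B libraries, against 21429, 19366 and 11849 in control libraries, a difference of 0.36 ± 0.24 that was 0.10 without control replicate 3. Syk differed by 0.44 ± 0.27 and Btk by 0.36 ± 0.28, which were 0.24 and -0.05 without control replicate 3. The differences were 0.04 ± 0.20 for Cd79a and -0.00 ± 0.28 for Blnk. Of the 10 genes 0 passed in limma and 1 had an unadjusted p under 0.05 (Igll1). In edgeR and in DESeq2 0 passed and 2 had an unadjusted p under 0.05. Over all genes 8 of 14155 passed (0.0565%), with 0 to 23 when 1 library was left out, and 0 members had no overlap against 6.46% of genes.

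In large Pro-B cells no member passed, with 0 of 10 called in limma, edgeR and DESeq2 and 0 with an unadjusted p under 0.05 in each. Over 13776 genes 0% passed in limma (394 genes had an unadjusted p under 0.05, and DESeq2 called 4), and 0 of 10 members had no overlap against 1.3% of genes. Igll1 had 26229, 30016, 19304, 40125 and 20725 normalized counts in tet-LIN28B libraries, against 25768, 21835, 28422 and 26500 in control libraries, a difference of 0.05 ± 0.23. The widest spread was in Syk, with 10372, 7797, 5402, 1572 and 5051 normalized counts in tet-LIN28B libraries and 6792, 5868, 3734 and 1653 in control libraries (0.37 ± 0.53). The lowest library of each genotype was replicate 4. Cd79b had 16337, 17433, 10221, 8649 and 10700 in tet-LIN28B libraries, against 15056, 11024, 7646 and 5411 in control libraries (0.42 ± 0.31). Without both libraries numbered 4, an alternative added after the data were seen, no member passed, Cd79b differed by 0.30 and Syk by 0.37, and Vpreb1, Igll1, Cd79a and Blnk changed sign (-0.02, -0.09, -0.06 and -0.29). The median of the 10 differences was 0.05, against 0.02 over all genes.

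**Figure D4:**
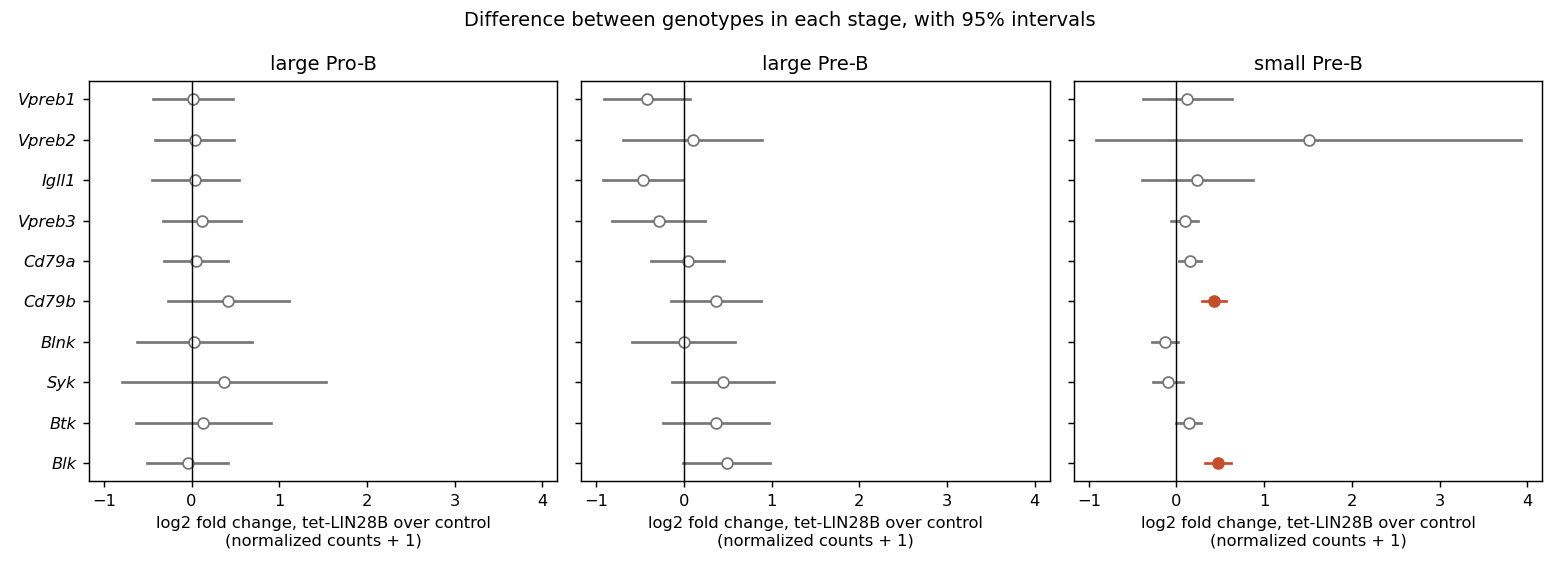
Log2 fold change, tet-LIN28B over control, of the 10 genes in each stage on the log2(normalized count + 1) scale with 95% intervals (filled: limma adjusted p under 0.05). The 2 filled points are Cd79b and Blk in small Pre-B cells, and the intervals are widest for Syk in large Pro-B cells and Vpreb2 in small Pre-B cells.

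The balance of surrogate light chain to signal chain within a library does not depend on the scaling. The ratio of Vpreb1, Vpreb2 and Igll1 to Cd79a and Cd79b was 0.171, 0.235, 0.229 and 0.175 in tet-LIN28B large Pre-B libraries, against 0.274, 0.252 and 0.50 in control libraries. The genotypes did not overlap, and the difference was -0.70 on the log2 scale (exact two-sided permutation p = 0.0571, the smallest that 4 against 3 allows, adjusted over 3 stages 0.171). Without control replicate 3, the highest library, it was -0.39. As Igll1 over Cd79a alone the ratio overlapped, at 0.447 to 0.614 in tet-LIN28B libraries and 0.549 to 0.919 in control libraries (-0.51, exact permutation p = 0.114, adjusted 0.343). In large Pro-B cells the ratio ranged from 1.43 to 2.40 in tet-LIN28B libraries and from 1.47 to 2.48 in controls (-0.20, exact permutation p = 0.429). At the small Pre-B stage it averaged 0.0017 ± 0.00037 in tet-LIN28B libraries and 0.00182 ± 0.00040 in control libraries (SD, n = 3 each; -0.09, exact permutation p = 0.9). Adjusted over the 3 stages these were 0.643 and 0.9.

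The ratio of Cd79b to Cd79a, added after the values were seen, was 1.15, 1.08 and 1.08 in tet-LIN28B small Pre-B libraries, against 0.900, 0.916 and 0.919 in control libraries. The genotypes did not overlap (difference 0.28, exact two-sided permutation p = 0.1, the smallest that 3 against 3 allows, adjusted 0.3). In large Pre-B cells the ratio was 1.97 to 2.75 in tet-LIN28B libraries and 1.41 to 2.53 in controls, and in large Pro-B cells 0.758 to 1.86 and 0.646 to 1.56, with differences of 0.32 and 0.37 (exact permutation p = 0.286 and 0.333, adjusted 0.333 each). Without control replicate 3 the large Pre-B difference was 0.10.

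**Figure D5:**
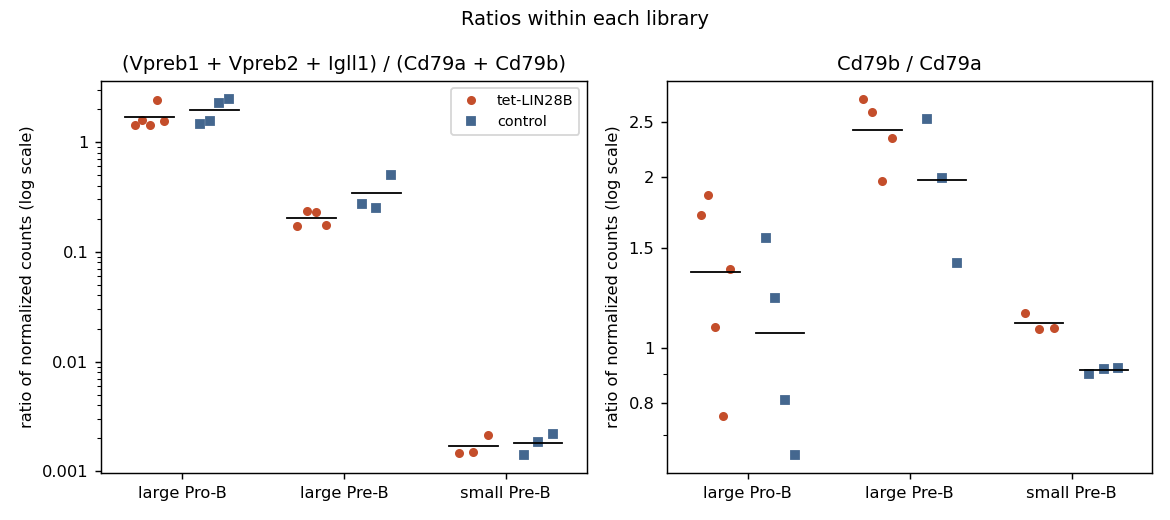
Ratios of normalized counts within each library on log axes, by stage, tet-LIN28B left of control (points are libraries, bars the mean). The surrogate light chain to CD79 ratio of the 4 tet-LIN28B large Pre-B libraries (0.171 to 0.235) lies below that of the 3 control libraries, and the Cd79b to Cd79a ratio of the 3 tet-LIN28B small Pre-B libraries (1.08 to 1.15) lies above that of the controls.

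Whether the genotype difference itself changed between stages was tested in 1 model over all libraries with the mouse as a block. Of the 10 genes 0 passed in each of the 3 differences in limma, and 1, 0 and 0 had an unadjusted p under 0.05 for large Pre-B minus large Pro-B, small Pre-B minus large Pro-B and small Pre-B minus large Pre-B. Over all 11830 genes of the model 0, 0.0338 and 0.0169% passed. The difference for Blk between large Pre-B and large Pro-B cells was 0.58 ± 0.23 (adjusted p = 0.9998 in limma). For small Pre-B cells it was 0.51 ± 0.27 against large Pro-B and -0.06 ± 0.29 against large Pre-B cells (adjusted p = 0.992 and 0.999 in limma). The change of Blk in small Pre-B cells was thus not shown to differ from that in the large stages. The differences for Cd79b were -0.00 ± 0.32, 0.01 ± 0.38 and 0.01 ± 0.40, so its change in small Pre-B cells was not shown to differ from that in the large stages.

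The other genes of the pathway were read from 4 lists, in which 0 genes passed in limma in large Pro-B and large Pre-B cells. In small Pre-B cells, among adaptors and kinases 5 of 30 rose and 4 fell, against 14.4% of all genes called in either direction, with a median of 0.03. Bank1, an adaptor of B cell receptor signalling, had 4052 to 4777 normalized counts in tet-LIN28B libraries and 2118 to 2775 in control libraries (0.89 ± 0.10). Lat2, an adaptor of the LAT family, rose by 1.06 ± 0.19. Lcp2, the T and myeloid cell counterpart of Blnk, fell by 2.17 ± 0.29 from a low level, with 25.3 to 34.5 normalized counts in tet-LIN28B libraries and 120 to 193 in control libraries, and Gab1 fell by 1.47 ± 0.27. Adjusted p-values for these 4 were between 0.000661 and 0.0064 in limma.

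Among inhibitors of receptor signals 9 of 23 rose and 2 fell, against the same 14.4% of all genes, with a median of 0.14. Ptpn6, which encodes the phosphatase SHP-1, had 16710 to 21071 normalized counts in tet-LIN28B libraries and 12094 to 12896 in control libraries (0.55 ± 0.08), and Pirb, an inhibitory receptor, rose by 0.87 ± 0.11. Sla2, an adaptor that dampens receptor signals, rose by 0.42 ± 0.09. Cd72, a coreceptor with inhibitory motifs, fell by 0.57 ± 0.06. Of the calcium, PKC, RAS and NF-κB steps 2 of 34 rose and 0 fell, a share below the 14.4% of all genes. Rasgrp2, a RAP1 exchange factor, rose by 0.58 ± 0.10.

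Among transcription factors of the receptor genes 3 of 20 rose and 7 fell, against 14.4% of all genes, with a median of -0.18, against -0.00 over all genes. Id3, an inhibitor of E2A family factors, had 7567 to 8908 normalized counts in tet-LIN28B libraries and 2684 to 2814 in control libraries (1.57 ± 0.07, adjusted p = 6.69e-06 in limma). Spi1, which encodes PU.1, rose by 0.51 ± 0.06. Bach2 fell by 0.70 ± 0.08, and Ebf1, a factor that activates surrogate light chain and CD79 genes, fell by 0.35 ± 0.06.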

How the data were processed

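Poly-A RNA of sorted cells was sequenced. The submitters' processing notes name STAR 2.7.1, RSEM 1.28, DESeq2 and the build mm10, without saying which step each served for these libraries. The deposited values are a signal unit that reads as gene counts divided by the authors' size factors, 1 table per stage, each normalized on its own. The authors' fold changes and p-values were not used. Every value came out as a whole read (within 0.1 read, 100% of values) after division by its library's smallest step. The main test was limma (3.58.1, R 4.3.3) on log2(normalized count + 1) of genes with at least 10 normalized counts in as many libraries as the smaller genotype held, with Benjamini-Hochberg adjustment over all genes of a stage and a threshold of 0.05. Fold changes are on that scale and understate those of low genes. edgeR 4.0.16 and DESeq2 1.42.0 on the recovered reads were alternatives, and called 0, 0 and 2018 and 4, 76 and 2674 genes in order of stage. The sequencer of each library was not given in the sources used here. Stage differences used 1 limma model with the mouse as a block (correlation 0.28). Ratios were tested with exact permutation tests (scipy 1.17.1). The labels call the replicates biological. The limma test within a stage was run on simulated counts with the same dispersion for every gene. The ratio tests and the model of stage differences were not run on simulated data. Replicate numbers were not treated as pairs, since same-numbered libraries came from different mice. Named were all 10 genes, up to 4 called genes with the smallest adjusted p per list, and the 5 genes most like Igll1 and Cd79b. The genes and lists were chosen with earlier results of these data known. Results of some genes of the lists are not reported here, although the list counts and sums include them.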

Additional observations from a re-analysis of the deposited data

Results flagged for a closer look

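The surrogate light chain to CD79 ratio of tet-LIN28B large Pro-B replicate 4 was 2.40, far above the 1.43 to 1.60 of the other 4 tet-LIN28B libraries. Control replicates 3 and 4 of the stage were at 2.25 and 2.48, so 2.40 was within the range of the stage. The tet-LIN28B large Pro-B ratio was the only one of 36 groups of values tested in which 1 library lay this far from the others. Chance gives about 1 in 20, so 1 flag in 36 is no more than chance gives. Replicate 4 of tet-LIN28B also had the lowest Mki67 and Syk of the tet-LIN28B large Pro-B libraries.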

How the results depend on the processing

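The members called (0, 0 and 2 by stage, and 0 for each stage difference) were the same in number under every alternative run. The genes called over the whole table moved more. In large Pro-B cells DESeq2 called 4 and leaving out 1 library gave 0 to 1. In large Pre-B cells, where limma called 8, no filter gave 15, rescaling 1, quantile normalization 4, edgeR 0, DESeq2 76 and leaving out 1 library 0 to 23. In small Pre-B cells leaving out 1 library gave 1016 to 1965. With the replicate block, which is not a pairing of mice (correlations of same-numbered libraries ranged from -0.19 to 0.43), 2 genes were called in large Pre-B cells. The block did not change the number of members called. Each difference that changed sign had not passed the test in the comparison concerned. In large Pro-B cells leaving out 1 library gave -0.10 to 0.091 for Vpreb1, -0.055 to 0.10 for Vpreb2, -0.031 to 0.22 for Vpreb3, -0.11 to 0.16 for Igll1, -0.018 to 0.12 for Cd79a, -0.24 to 0.28 for Blnk, -0.054 to 0.79 for Syk, -0.088 to 0.40 for Btk and -0.17 to 0.057 for Blk. Blnk was at -0.068 in edgeR and -0.0379 in DESeq2. Without both libraries numbered 4, Vpreb1, Igll1, Cd79a and Blnk were at -0.0247, -0.0888, -0.0580 and -0.29. In large Pre-B cells leaving out 1 library gave -0.25 to 0.38 for Vpreb2, -0.020 to 0.11 for Cd79a, -0.36 to 0.32 for Blnk and -0.049 to 0.69 for Btk. Rescaling gave -0.0057 for Vpreb2 and -0.066 for Cd79a, and quantile normalization -0.047 for Cd79a. In small Pre-B cells leaving out 1 library gave -0.0088 to 0.33 for Vpreb1 and -0.073 to 0.45 for Igll1, and quantile normalization gave -0.078 for Cd79a. The surrogate light chain to CD79 ratio of small Pre-B cells was 0.090 as Igll1 over Cd79a and -0.27 to 0.058 with 1 library left out. Between stages, leaving out 1 library gave -0.23 to 0.18 for Cd79b in large Pre-B minus large Pro-B cells, -0.20 to 0.26 in small Pre-B minus large Pro-B cells and -0.092 to 0.20 in small Pre-B minus large Pre-B cells. It gave -0.12 to 0.40 for Igll1 in small Pre-B minus large Pro-B cells and -0.29 to 0.18 for Blk in small Pre-B minus large Pre-B cells. Cd79b was at 0.0020 with a minimum of 50 (large Pre-B minus large Pro-B), -0.030 with rescaling and -0.22 with quantile normalization (small Pre-B minus large Pro-B), and -0.048 with quantile normalization (small Pre-B minus large Pre-B), where Blk was at 0.028. The causes were not tested. With 3 to 5 libraries a genotype, and few Vpreb2 reads in small Pre-B cells, small differences could not be resolved.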
